A study of Mus musculus with 8 samples.

Results

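Nuclear genes that encode the mitochondrial protein import machinery were examined in muscle satellite cells (SCs), the resident stem cells of muscle fibres, of control mice and exercise mice. The members were all protein-coding genes named Timm or Tomm with a number, together with Dnajc19, Pam16, Grpel1, Grpel2, Hspa9, Hspd1 and Hspe1, and gave 32 of the 52636 genes in the table. The study asked how 4 weeks of treadmill training altered the transcriptome of SCs. RNA sequencing was performed on 4 control and 4 exercise libraries, each from about 800 SCs sorted as CD45-, CD11b-, CD31-, Sca1-, CD34+ and integrin α7+ cells and amplified with a single-cell RNA library kit. According to the methods, the mice were male C57B/6J and 10 weeks old at the start. Control mice were sedentary (untrained), and training lasted 4 weeks, with 30 min of running at 12 m/min on 4 days of each week. The study counts mice as replicates for these data. The labels do not tie a library to an animal, and some libraries were related as described below, so p-values measure only the spread between these libraries, which may be technical.

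Nearly all mitochondrial proteins are made in the cytosol and must be carried into the organelle. They cross the outer membrane through the TOM complex, in which Tomm40 forms the channel, Tomm20, Tomm22 and Tomm70a are receptors and small subunits such as Tomm5, Tomm6 and Tomm7 shape the complex. Small Timm chaperones then guide hydrophobic proteins through the intermembrane space to the TIM22 complex, whereas proteins with a presequence pass through the TIM23 complex and are pulled into the matrix by a motor around Hspa9, to be folded by the chaperonin of Hspd1 and Hspe1. Following this route, the members were divided into 10 outer membrane genes, 6 intermembrane space genes, 9 inner membrane genes and 7 genes of the matrix-side motor and folding.

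Some members share sequence near their starts, which is shown here for genes called below and for Hspe1 and Timm9, which share a motif with Hspd1. Sequences were taken from RefSeq (GRCm38.p6), whose promoter table held 27 of the 32 members in 30 windows of 300 bases (Grpel2, Tomm40l, Tomm7, Timm21 and Hspa9 were not matched). Hspd1 and Hspe1 lie head to head on chromosome 1 with 107 bases between the first bases of their basic transcripts in GENCODE M21 (chr1:55088025-55088131). A stretch of 30 bases within this interval (chr1:55088053-55088082, plus strand, 5′ to 3′ towards Hspe1) and a stretch upstream of Timm9 (chr12:71136835-71136907, minus strand) both held the heat shock element TTCNNGAANNTTC, which is written in capitals and is known as the binding motif of heat shock factors:
Hspd1-Hspe1 interval: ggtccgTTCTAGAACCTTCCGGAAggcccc
Timm9 upstream: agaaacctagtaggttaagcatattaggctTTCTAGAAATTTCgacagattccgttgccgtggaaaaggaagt
In the stretch between Hspd1 and Hspe1 the 18 capitals hold 2 overlapping matches, 1 in each orientation, and span bases 55088059 to 55088076. The Timm9 match begins at position -202 from its RefSeq start. Searched on both strands, the motif was found near 3 of 27 members (Hspd1, Hspe1 and Timm9), in 3 of their 30 windows, and in 0.603% of all 32851 windows. Hspd1 and Hspe1 share the same matches, which are counted for both. The interval upstream of Hspe1 also lies within the first exon of a longer annotated Hspd1 transcript.

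The ETS core CCGGAAG, read on both strands, was found near 12 of 27 members (13 of their 30 windows) and in 8.86% of all windows. Among the 6 called genes in the table it was near Timm8b, Timm29, Tomm22 and Hspd1, and it had no match near Timm50 and Timm17b. Its matches near Hspd1 and Hspe1 are the same letters, counted for both, and overlap the heat shock element shown above. The stretches of Timm8b (chr9:50603878-50603907), Timm29 (chr9:21592499-21592528) and Tomm22 (chr15:79670810-79670839), all on the plus strand with the match in capitals, were as follows:
Timm8b: tgaagcgtgaaCCGGAAGgcaggagacggt
Timm29: agctctgaccaCTTCCGGgctccactcacc
Tomm22: agcccggctcgCTTCCGGAAGacgctctgt
Timm29 carried the motif on the opposite strand, and the Tomm22 stretch shown holds 2 overlapping matches of the 3 in its window. A match describes the letters only and was not tested as a binding site.

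The libraries differed before any member was considered. Control libraries held 2339966 to 3013354 reads on genes and exercise libraries 1011737 to 1200221, on 5169 to 7307 and 2348 to 3289 genes. Values are given as FPKM (fragments per kilobase of gene, scaled by a library size that the authors set), and the reads behind each value could be recovered from the table. The library size used in the FPKM was 0.980 to 1.43 times the reads in control libraries, 1.58 in exercise 1 and exercise 2, 0.924 in exercise 3 and 0.249 in exercise 4, so 1 read in exercise 4 weighs most in FPKM. The reads of exercise 1 and exercise 2 differed by 3.86 (chi-square divided by its degrees of freedom, where sampling noise alone gives about 1), and those of all other pairs by 82.6 to 721. For genes absent from control 3 but holding 50 or more reads in control 1, control 4 held a median 0.281 of their share of reads (quartiles 0.240 and 0.326, 345 genes), and for genes chosen the other way round a median 0.714 (0.628 and 0.811, 658 genes). For exercise 3 these medians were 0.299 of exercise 1 (0.243 and 0.350) and 0.677 of exercise 4 (0.606 and 0.756), so the 8 libraries may hold fewer separate samples. Single genes departed from these proportions. The SC markers Pax7, Itga7, Cdh15, Calcr and Megf10 had 0 reads in all 8 libraries, and 7 of 12 listed SC markers had reads in control and 2 of 12, Cd34 and Sdc4, in exercise, with a summed FPKM of 24.2 to 41.5 and 31.9 to 83.6. Listed myofibre genes were read in both groups, 11 of 12 in control (summed FPKM 33382 to 58727) and 10 of 12 in exercise (19676 to 59875), as were all 6 fibro-adipogenic genes (1405 to 2217 and 1485 to 2218). Endothelial genes summed to 0.0925, 2994, 1669 and 1076 FPKM in control 1 to 4, nearly all from Kdr in control 2 to 4, and to 4.42 to 26.2 in exercise, nearly all from Tek, with Pecam1 and Cdh5 at 0. Kdr had 0 reads in control 1 and at most 8 in an exercise library. Mural genes summed to 2.88 to 46.1 in control and 5.72 to 89.3 in exercise, and 6 immune genes had 0 reads. The part of these cell types in the results on the members was not tested.

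Of the 32 members, 25 had a read in at least 1 library. Reads were found in both groups for 14 members, in control libraries alone for 10 and in exercise libraries alone for 1, Timm22. Of the 9029 genes with a read in any library, 52.4% had reads in control alone and 6.89% in exercise alone. No read fell on the other 7 members, which were Tomm6, Tomm40, Tomm40l, Tomm20l, Timm8a1, Timm8a2 and Timm10b. Tomm40, the channel gene of the outer membrane, thus had 0 reads in both groups. So had Tnnc2, a troponin gene of fast muscle, where its partner Tnni2 had 1172 to 11112 reads in every library, and why such genes were at 0 was not tested. For a gene with 0 reads, up to 3 reads were allowed as a limit. This limit and the intervals below cover counting error only, because amplification copies molecules.

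**Figure D1:**
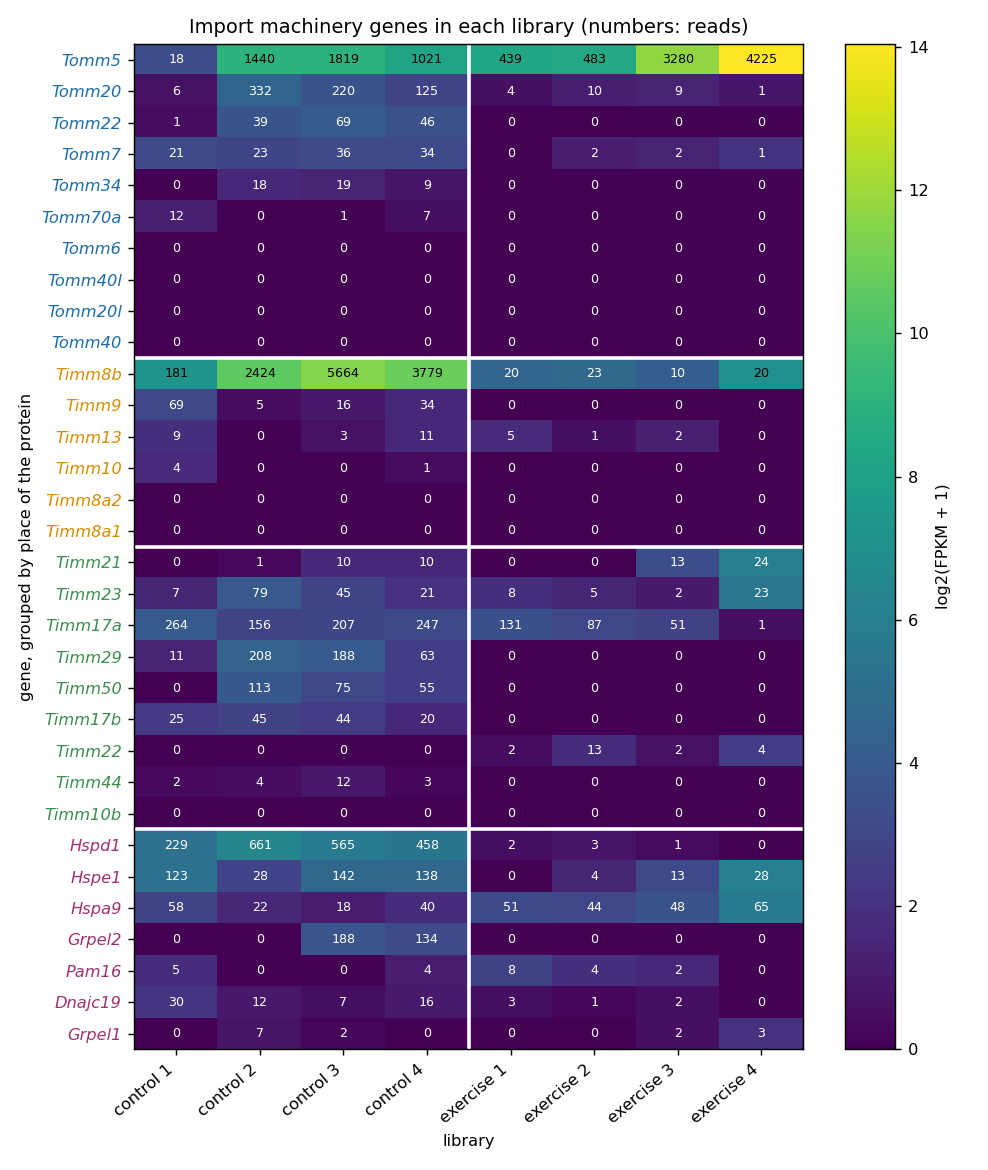
Heat map of log2(FPKM + 1) for the 32 members (vertical axis, grouped by place of the protein) in the 4 control and 4 exercise libraries (horizontal axis), with the recovered reads written in each cell. Tomm5 and Timm8b stand out in most libraries, 7 members have 0 reads everywhere, and Hspd1 has 229 to 661 reads in control and 0 to 3 in exercise.

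The limma fit on log2(FPKM + 1), with Benjamini-Hochberg adjustment, covered 4328 genes whose mean reached 1 FPKM, 18 of them members. Hspd1, Timm8b, Timm29, Tomm22, Timm50, Timm17b and Tomm7 were lower in exercise, and no member was higher. These 7 of 18 members tested (38.9%) stood against 26.8% of all genes tested that were called lower, and 0 of 18 against 8.78% called higher. At an unadjusted p under 0.05, 9 members were lower and 1, Hspa9, was higher, against 37.7% and 11.9% of all genes tested. With voom on the recovered reads 5 were lower and 0 higher, against 18.3% and 10.4%. Voom kept Hspd1, Timm8b, Timm29 and Timm17b, added Timm9 (adjusted p = 0.0396) and lost Tomm22 (0.0584), Timm50 (0.104) and Tomm7 (0.119). The median log2 fold change was -1.70 over the members tested and -1.42 over all genes tested. Fitted values were below 0 for 14 of the 18 members and for 68.3% of all genes tested. A low mean in exercise did not keep a gene out of the test when control was high, and 8 of the 18 members passed with a mean under 1 FPKM in exercise, as did 44.8% of all genes tested, so these counts are a description. In bulk libraries, fewer cells of a type and less RNA per cell cannot be told apart.

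The number of members called lower changed with the libraries used, as did the share of all genes. It was 3 without exercise 1, exercise 2 or exercise 3, when 9.47%, 9.77% and 8.39% of all genes tested were called lower. It was 4 without control 3 or control 4, against 13.8% and 9.43% of all genes. It was 5 without control 2 (18.3% of all genes), 6 without exercise 4 (18.8%) and 9 without control 1 (34.9%). With exercise 1 and exercise 2 averaged as 1 sample it was 3 (Hspd1, Timm8b and Timm17b), against 9.8% of all genes, and it was 0 in a fit that further dropped control 4 and exercise 3 (2 members lower at an unadjusted p under 0.05), when no gene of the table was called. Under quantile normalization, which moved the median of all genes to -0.44 and the calls of all genes from 1161 lower and 380 higher to 375 lower (8.66%) and 566 higher (13.1%), 2 members (Hspd1 and Timm8b) were called lower and 1 (Hspa9) higher.

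**Figure D2:**
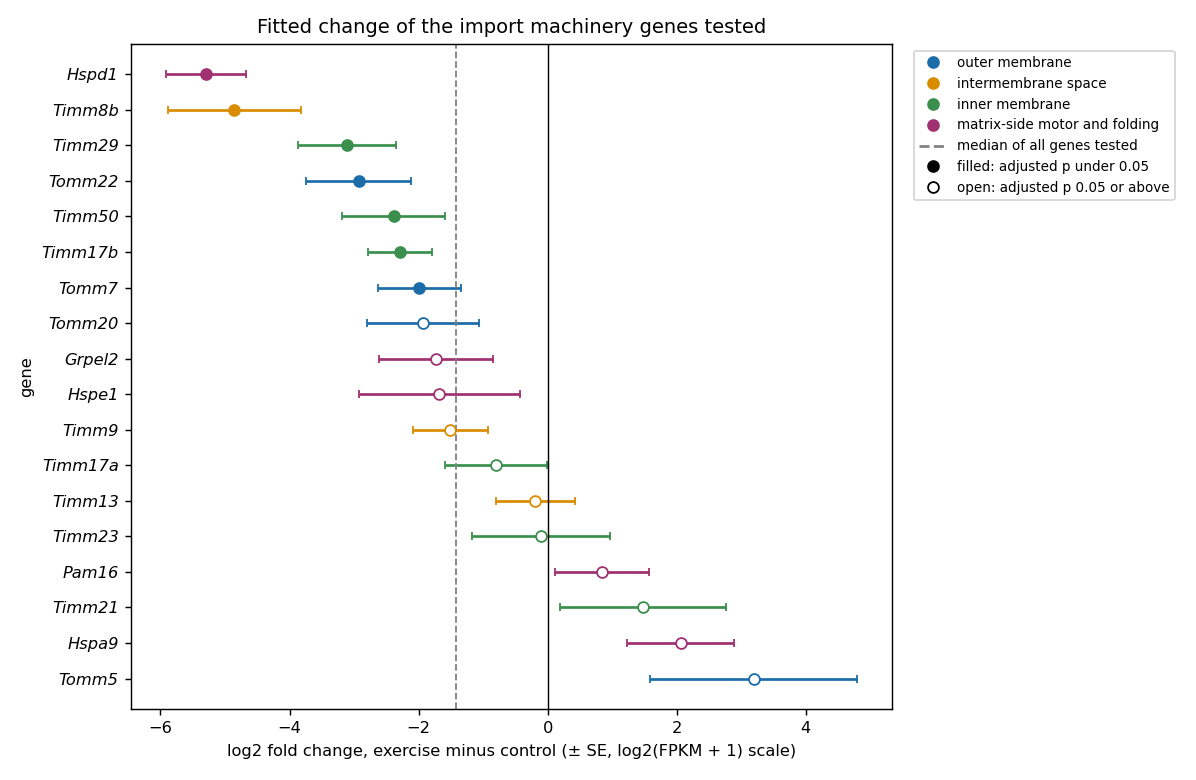
Log2 fold change (exercise minus control, horizontal axis, ± SE, log2(FPKM + 1) scale) of the 18 members tested (vertical axis), coloured by place of the protein, with filled points for an adjusted p under 0.05 and a dashed line at the median of all genes tested (-1.42). Hspd1 (-5.30) and Timm8b (-4.85) lie far to the left of the line, and Pam16, Timm21, Hspa9 and Tomm5 lie to the right of 0 with open points.

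In the outer membrane, 6 of 10 members had reads and 4 were tested. Of these, 2, Tomm22 and Tomm7, were called lower, with a median log2 fold change of -1.96. Of all genes tested, 26.8% were called lower, with a median of -1.42. Tomm22, the central receptor of the TOM complex (chromosome 15, 79670861 to 79672862, plus strand), measured 0.392, 11.4, 15.9 and 10.4 FPKM in control 1 to 4, from 1, 39, 69 and 46 reads, and 0 in each exercise library. Every control library was above every exercise library, but control 1 was so by a single read. Tomm22 fell with a log2 fold change of -2.92 ± 0.82 (SE, limma adjusted p = 0.0273, exact permutation p = 0.0286, n = 4 and 4). The value 0.0286 is the smallest that an exact two-sided permutation test of 4 against 4 libraries can give. Against 3 reads per exercise library its mean was at least 2.52-fold lower (at least 1.96-fold without control 3 and 4.98-fold without exercise 4). At the mean control level in FPKM, 17.7 reads would have fallen in exercise 1 and 3.1 in exercise 4. The latter is about the 3 reads that a count of 0 allows. It is low because the library size of exercise 4 was set to 0.249 times its reads. Exercise 4 held 1155592 reads on genes and exercise 1 held 1058317. As RPM (reads scaled to the same library total), Tomm22 measured 0.427, 14.6, 22.9 and 16.5 in control 1 to 4 and 0 in each exercise library. The call was kept without control 1 or exercise 4 and was lost when any of the other 6 libraries was left out.

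Tomm7, a small subunit that modulates the stability of the complex (chromosome 5, 23838944 to 23844161, minus strand), was the steadiest member in control, with 8.14, 6.68, 8.20 and 7.58 FPKM from 21, 23, 36 and 34 reads. In exercise 1 to 4 it measured 0, 1.11, 1.60 and 3.08 FPKM from 0, 2, 2 and 1 reads. The groups did not overlap, and the mean was 5.27-fold lower in exercise (3.96-fold without exercise 1 and 8.44-fold without exercise 4). Its log2 fold change was -1.99 ± 0.64 (limma adjusted p = 0.0398, exact permutation p = 0.0286), and of the 8 fits with 1 library left out, the call was kept only without control 1 or exercise 4. Under quantile normalization it was -0.53 (adjusted p = 0.575).

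Tomm20, the receptor that binds presequences, measured 0.533, 22.1, 11.5 and 6.39 FPKM in control 1 to 4 and 0.488, 1.28, 1.65 and 0.707 in exercise. Control 1 lay within the exercise range, and the other 3 control libraries lay above it. Its log2 fold change of -1.93 ± 0.86 missed the threshold (limma adjusted p = 0.1001), and without control 1 it was -2.70 with an adjusted p of 0.00355.

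Tomm5, a small subunit beside the channel, had the most FPKM of all members in exercise and went the other way. It measured 9.04, 542, 537 and 295 FPKM in control 1 to 4 and 302, 349, 3408 and 16889.9 in exercise 1 to 4. Exercise 1 and exercise 2 lay within the control range, exercise 3 and exercise 4 lay above it, and control 1 lay far below every other library with 18 reads. The difference did not pass the test, with a log2 fold change of 3.20 ± 1.60 (limma adjusted p = 0.132, exact permutation p = 0.229). The mean was 15.1-fold higher in exercise, 3.91-fold without exercise 4, and 0.942 of control with exercise 3 and exercise 4 both left out. As RPM (reads scaled to the same library total), which leaves out the size set by the authors, Tomm5 measured 7.69, 540.4, 604 and 366 in control and 415, 477, 2733 and 3656 in exercise, a mean 4.80-fold higher. Transcripts of the mitochondrial genome took 2.09%, 11.2%, 15.3% and 11.9% of reads in control 1 to 4 and 7.85%, 7.56%, 50.2% and 68.7% in exercise 1 to 4. The library with the smallest mitochondrial share had the fewest Tomm5 reads, and the 2 with the largest had the most, whereas Timm8b did not follow this order. The part of the mitochondrial share in the Tomm5 values was not tested.

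**Figure D3:**
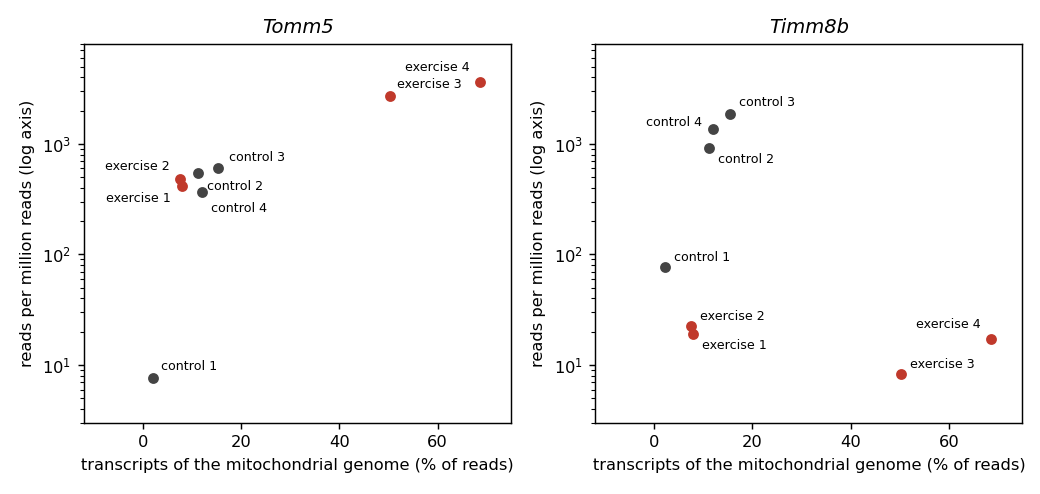
RPM (vertical, log axis) of Tomm5 and Timm8b against the share of reads on transcripts of the mitochondrial genome (horizontal axis, %), 1 point for each library, control in grey and exercise in red. Tomm5 runs from 7.69 in control 1 (2.09% mitochondrial) to 3656 in exercise 4 (68.7%), and all 4 exercise libraries lie below the control libraries for Timm8b.

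Tomm34, a cytosolic partner that holds precursors, and Tomm70a, the receptor for carrier proteins, had reads in control alone and were too low to be tested. Tomm34 measured 0, 1.93, 1.60 and 0.743 FPKM in control 1 to 4, and Tomm70a 1.38, 0, 0.0678 and 0.465. At its control mean in FPKM, Tomm34 would give 5.44, 5.19, 3.60 and 0.937 reads in exercise 1 to 4, where 0 were seen. Against 3 reads per exercise library the bound on control over exercise was 0.775, below 1. It was 1.03 without control 1 and 1.53 without exercise 4, whose library size was set to 0.249 times its reads. Whether a lower level could be seen thus depended on the libraries used and on that library size. For Tomm70a the bound was 0.431 (0.160 without control 1 and 0.852 without exercise 4), and no difference was detectable at this depth.

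In the intermembrane space, 4 of 6 members had reads and 3 were tested. Of these, 1, Timm8b, was called lower (median log2 fold change -1.51, against 26.8% and -1.42 for all genes tested). Timm8b, a subunit of the small chaperone hexamers that escort inner membrane proteins (chromosome 9, 50603910 to 50605320, plus strand), had the highest control mean of all members, 1578 ± 1095 FPKM (SD, n = 4). It measured 152, 1528, 2801 and 1831 FPKM in control 1 to 4, from 181, 2424, 5664 and 3779 reads, and 23.1, 27.8, 17.4 and 134 in exercise 1 to 4, from 20, 23, 10 and 20 reads. The groups did not overlap, although exercise 4 reached close to control 1 in FPKM. In RPM they lay further apart, at 17.3 and 77.4. The mean was 31.2-fold lower in exercise (23.1-fold without control 3 and 69.3-fold without exercise 4). Pooled over libraries, RPM differed 67.6-fold (95% interval 53.7 to 86.3, counting error only). The log2 fold change was -4.85 ± 1.03 (limma adjusted p = 0.00970, exact permutation p = 0.0286), and the call held when any 1 library was left out (highest adjusted p = 0.0387). The overlapping gene AU019823 had 106 reads in all, few beside the 12048 control reads of Timm8b but more than its 73 exercise reads.

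Timm9, a partner of Timm10 in the chaperone that carries metabolite carriers, showed 7.02, 0.381, 0.957 and 1.99 FPKM in control 1 to 4, from 69, 5, 16 and 34 reads, and 0 in each exercise library. The groups did not overlap, but the control libraries themselves spread widely, with control 1 the highest. Its log2 fold change of -1.51 ± 0.58 did not pass (limma adjusted p = 0.0623, exact permutation p = 0.0286), and it passed in 5 of 20 alternative settings, which were without control 1 (adjusted p = 0.0362), without control 2 (0.0400), voom (0.0396), a pseudocount of 0.1 (0.0153) and library quality weights (0.00131). In exercise 4 a count of 0 allows up to 2.43 FPKM, above 3 of the 4 control values, and in exercise 1 up to 0.419 FPKM. The limit is high in exercise 4 because of the library size set by the authors, 0.249 times its reads. In RPM, Timm9 measured 29.5, 1.88, 5.31 and 12.2 in control 1 to 4. Timm13, the partner of Timm8 proteins, measured 2.86, 0, 0.561 and 2.01 FPKM in control and 2.18, 0.457, 1.32 and 0 in exercise, with overlapping groups and a log2 fold change of -0.19 ± 0.62 (limma adjusted p = 0.810). Timm10 had 4 reads in control 1 and 1 in control 4 only. Of the Timm8 paralogs, Timm8b thus carried all reads, and Timm8a1 and Timm8a2 had 0.

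In the inner membrane, 8 of 9 members had reads and 6 were tested. Of these, 3, Timm29, Timm17b and Timm50, were called lower (median log2 fold change -1.55, against 26.8% and -1.42 for all genes tested). All 3 had 0 reads in every exercise library, which 30.4% of all genes tested also had. Timm29 is a subunit of the carrier translocase TIM22 (chromosome 9, 21592722 to 21595970, plus strand). It measured 1.51, 21.4, 15.2 and 4.99 FPKM in control 1 to 4, from 11, 208, 188 and 63 reads. The control libraries were uneven, with control 1 the lowest. Against 3 reads per exercise library the mean was at least 8.14-fold lower (at least 5.46-fold without control 2 and 16.1-fold without exercise 4). The log2 fold change was -3.10 ± 0.76 (limma adjusted p = 0.0161, exact permutation p = 0.0286), and the call was lost without exercise 1, exercise 2 or exercise 3 (highest adjusted p = 0.0565).

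Timm17a and Timm17b encode alternative forms of the same subunit of the TIM23 channel and gave different values. Timm17b (chromosome X, 7899357 to 7908351, plus strand) measured 4.26, 5.75, 4.41 and 1.96 FPKM in control 1 to 4, from 25, 45, 44 and 20 reads, and 0 in each exercise library. It fell with a log2 fold change of -2.29 ± 0.49 (limma adjusted p = 0.0101, exact permutation p = 0.0286), a call that held when any 1 library was left out (highest adjusted p = 0.0482). Its mean was at least 2.49-fold lower (at least 2.09-fold without exercise 1 and 4.92-fold without exercise 4). Under quantile normalization the log2 fold change was -1.06 (adjusted p = 0.122). Timm17a (chromosome 1, 135295213 to 135313778, minus strand) measured 14.6, 6.45, 6.72 and 7.85 FPKM in control and 9.93, 6.91, 5.83 and 0.440 in exercise. Exercise 1 and exercise 2 lay within the control range, exercise 3 just under it, and exercise 4 had 1 read. Its log2 fold change was -0.81 ± 0.79 (limma adjusted p = 0.406), and under quantile normalization 0.80. The difference between the 2 genes was not tested. Reads of near-identical stretches cannot be told apart between paralogs.

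**Figure D4:**
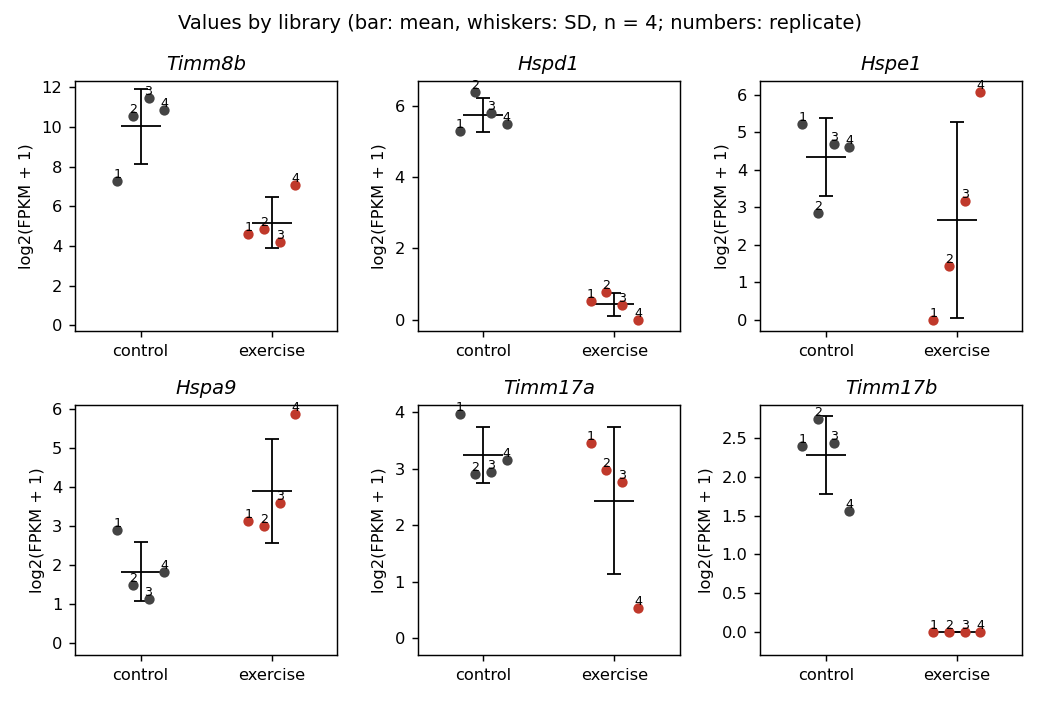
Log2(FPKM + 1) (vertical axis) of Timm8b, Hspd1, Hspe1, Hspa9, Timm17a and Timm17b in control and exercise libraries (horizontal axis), with points numbered by replicate, a bar at the mean and whiskers for the SD (n = 4). Timm8b, Hspd1 and Timm17b lie lower in every exercise library, Hspa9 lies higher in every exercise library, and Hspe1 and Timm17a overlap.

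Timm50, the receptor of TIM23 that meets presequences on their way from TOM (chromosome 7, 28305516 to 28312072, minus strand), measured 0, 13.7, 7.16 and 5.14 FPKM in control 1 to 4, from 0, 113, 75 and 55 reads. Control 1 was at 0 like all 4 exercise libraries, so the groups overlapped. Timm50 had a log2 fold change of -2.38 ± 0.80 (limma adjusted p = 0.0440), a call kept in 1 of the 8 fits with 1 library left out, without control 1. Its mean was at least 4.16-fold lower against 3 reads per exercise library, at least 2.62-fold lower without control 2 and at least 8.22-fold lower without exercise 4. Timm23, the channel itself, measured 1.71, 14.4, 6.46 and 2.95 FPKM in control and 2.68, 1.75, 1.01 and 44.7 in exercise. Its groups overlapped, exercise 4 was the highest library in FPKM with 23 reads but not in RPM (19.9, against 29.6 in control 2), and the log2 fold change was -0.10 ± 1.07 (limma adjusted p = 0.940), with a sign that turned in 8 of 21 alternative settings.

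Timm21, which links TIM23 to the TOM complex, was seen mainly in exercise 3 and exercise 4, at 8.92 and 63.3 FPKM from 13 and 24 reads, with 0 in exercise 1 and exercise 2. In control it measured 0, 0.248, 1.95 and 1.91 FPKM. Its log2 fold change of 1.47 ± 1.29 did not pass (limma adjusted p = 0.354), and without exercise 4 it was 0.25. The mean FPKM was 17.6-fold higher in exercise, and 2.90-fold without exercise 4. Timm22, the channel of the carrier translocase, was the 1 member with reads in exercise alone, at 0.376, 2.56, 0.567 and 4.36 FPKM from 2, 13, 2 and 4 reads. It was below the filter, and its exact permutation p was 0.0286. Timm44, which tethers the motor to the channel, showed the reverse with 2, 4, 12 and 3 reads in control 1 to 4 (0.238, 0.357, 0.839 and 0.205 FPKM) and 0 in exercise (exact permutation p = 0.0286), at levels that 3 reads in an exercise library would exceed on average. Without the filter, the limma adjusted p was 0.103 for Timm22 and 0.0698 for Timm44, in a fit that called 6.71% of 9029 genes lower and 2.59% higher.

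On the matrix side, all 7 members had reads and 5 were tested. Of these, 1, Hspd1, was called lower (median log2 fold change -1.68, against 26.8% and -1.42 for all genes tested). Hspd1 encodes Hsp60, which forms the barrel of the folding chaperonin (chromosome 1, 55077835 to 55088243, minus strand), and had the smallest adjusted p of all members. It measured 37.8, 81.7, 54.8 and 43.5 FPKM in control 1 to 4, from 229, 661, 565 and 458 reads, and 0.453, 0.712, 0.341 and 0 in exercise 1 to 4, from 2, 3, 1 and 0 reads. The control libraries lay close together and far above all 4 exercise libraries. The mean was 145-fold lower in exercise (108- to 206-fold with 1 library left out). Pooled over libraries, 1913 reads in control stood against 6 in exercise, an RPM ratio of 131 (95% interval 59.9 to 356, counting error only). The log2 fold change was -5.30 ± 0.62 (limma adjusted p = 0.000681, exact permutation p = 0.0286). It was called whichever library was left out (highest adjusted p = 0.00566), with exercise 1 and exercise 2 averaged (adjusted p = 0.00417) and under quantile normalization (adjusted p = 0.00415). In the fit of 3 control and 2 exercise samples, without control 4 and exercise 3, its log2 fold change was -5.49 with an adjusted p of 0.214, when no gene of the table was called.

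Hspe1 encodes Hsp10, the lid of the same chaperonin (chromosome 1, 55088132 to 55091307, plus strand), and is read from the other side of the interval shown above. It measured 36.4, 6.20, 24.7 and 23.5 FPKM in control 1 to 4, from 123, 28, 142 and 138 reads, and 0, 1.70, 7.95 and 65.9 in exercise 1 to 4, from 0, 4, 13 and 28 reads. In FPKM, exercise 1 and exercise 2 lay below all control libraries, and exercise 4 above them. In RPM it measured 52.6, 10.5, 47.1 and 49.5 in control and 0, 3.95, 10.8 and 24.2 in exercise, so exercise 4 lay below 3 of the 4 control libraries. The log2 fold change of -1.68 ± 1.24 did not pass (limma adjusted p = 0.276, exact permutation p = 0.286). The ratio of mean FPKM, control over exercise, was 1.20 and rose to 7.05 without exercise 4. It was below 1, with exercise the higher group, without exercise 1 (0.901), exercise 2 (0.921) or control 1 (0.959). Both genes shared the heat shock element, but the difference between their changes was not tested. The annotated exons of Hspd1 and Hspe1 overlap by a short stretch, and reads there cannot be assigned to either gene if strand was not used in counting.

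Hspa9 encodes mortalin, the Hsp70 that drives the import motor. It measured 6.43, 1.83, 1.17 and 2.55 FPKM in control 1 to 4, from 58, 22, 18 and 40 reads, and 7.76, 7.01, 11.01 and 57.4 in exercise 1 to 4, from 51, 44, 48 and 65 reads. Every exercise library was above every control library, as in 7.62% of all genes tested. The log2 fold change of 2.06 ± 0.83 nevertheless missed the threshold (limma adjusted p = 0.0729, exact permutation p = 0.0286). It passed in 4 of 21 alternative settings, which were without control 1 (adjusted p = 0.0375), a constant sum without mitochondrial transcripts (0.0472), quantile normalization (0.0126) and library quality weights (0.00126). In the other 17 it did not, among them a constant sum (0.112), voom (0.0970), exercise 1 and exercise 2 averaged (0.0992) and the replicate block (0.115). Its mean was 6.94-fold higher in exercise, and 2.87-fold without exercise 4. The control mean was 0.144 of the exercise mean with all libraries and 0.0891 of it without control 1. In RPM it measured 24.8, 8.26, 5.97 and 14.3 in control and 48.2, 43.5, 39.99 and 56.2 in exercise, a mean 3.52-fold higher, with exercise 4 close to the other exercise libraries. In 8 of the 18 members tested the groups did not overlap, against 31.6% of all genes tested. Hspa9 was the 1 member of these that was higher in exercise, and the other 7 were Hspd1, Timm8b, Timm29, Tomm22, Timm17b, Tomm7 and Timm9, which compares with 24% of all genes tested that were separate and lower.

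Grpel1 and Grpel2, exchange factors for Hspa9, were both sparse. Grpel2 measured 12.0 and 8.34 FPKM in control 3 and control 4, from 188 and 134 reads, and 0 in control 1, control 2 and each exercise library (log2 fold change -1.73 ± 0.88, limma adjusted p = 0.136). Grpel1 measured 0.648 and 0.145 FPKM in control 2 and control 3 and 0.511 and 2.95 in exercise 3 and exercise 4, and 0 elsewhere. Pam16 and Dnajc19, which regulate the ATP cycle of Hspa9, did not pass or were not tested. Pam16 measured 2.54, 0, 0 and 1.17 FPKM in control and 5.58, 2.93, 2.105 and 0 in exercise (log2 fold change 0.85 ± 0.73, limma adjusted p = 0.349). Dnajc19 measured 3.25, 0.973, 0.445 and 0.997 FPKM in control and 0.446, 0.156, 0.448 and 0 in exercise, with control 3 within the exercise range (exact permutation p = 0.0857). The pseudogene Dnajc19-ps held 29 reads, which may be shared with Dnajc19.

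Control libraries were not uniform for the machinery. Among the 25 members with reads, control 1 was below the other 3 control libraries in 10, above them in 9, between them in 3 (Tomm7, Timm17b and Timm44) and tied with at least 1 of them at 0 reads in 3 (Grpel1, Grpel2 and Timm22). Members that control 1 held low included Tomm5, Tomm20, Tomm22, Timm8b, Timm29 and Timm50, and those that it held high included Timm9, Hspe1, Hspa9 and Timm17a.

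Other genes of mitochondrial protein import and folding, 36 genes that are not members, were examined next. Reads fell on 33 of them, 20 were tested, 6 were lower in exercise and 0 were higher, with a median log2 fold change of -1.81. The 6 lower are 30% of those tested, near the 26.8% of all genes, whose median was -1.42. At an unadjusted p under 0.05 these counts were 8 and 0, against 37.7% and 11.9% of all genes tested. Voom called 4 lower and 0 higher, against 18.3% and 10.4%. Quantile normalization called 1 lower, Immp1l, and 1 higher, Gfer of the disulfide relay (2.35, limma adjusted p = 0.0362), against 8.66% and 13.1%. Immp1l, a subunit of the inner membrane peptidase, measured 5.93, 35.2, 50.2 and 27.6 FPKM in control 1 to 4 and 0.626, 0, 0 and 0 in exercise (log2 fold change -4.45 ± 0.76, limma adjusted p = 0.00362). Mtch2, an insertase of the outer membrane, measured 8.27, 10.7, 10.4 and 8.40 FPKM in control and 0.564, 0.295, 0.212 and 0 in exercise (-3.05 ± 0.55, limma adjusted p = 0.00451). Both calls held when any 1 library was left out, but under quantile normalization Mtch2 was -1.46 (adjusted p = 0.139) and not called. Samm50, which inserts barrel proteins such as Tomm40 into the outer membrane, measured 13.03, 7.03, 4.75 and 6.90 FPKM in control and 1.07, 1.498, 0 and 0 in exercise (-2.49 ± 0.63, limma adjusted p = 0.0190), a call lost without control 4, exercise 1 or exercise 3 and under quantile normalization (-0.90, adjusted p = 0.366). Its partner Mtx2 (-1.75 ± 0.49, limma adjusted p = 0.0281), the motor component Dnajc15 (-4.27 ± 1.30, adjusted p = 0.0343) and the presequence-degrading protease Pitrm1 (-2.83 ± 0.92, adjusted p = 0.0400) had 0 reads in each exercise library. Leaving out 1 library kept these 3 calls in 3, 2 and 1 of 8 fits. Control values were again uneven, since Dnajc15 measured 199.8, 0.504, 9.49 and 42.6 FPKM in control 1 to 4, and Pitrm1 0, 21.7, 13.2 and 7.03. Among 6 cytosolic chaperones that deliver precursors, 5 were tested and 0 were called in limma or voom (1 lower at an unadjusted p under 0.05, median log2 fold change 0.09).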

How the data were processed

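The authors deposited 1 table of FPKM per gene and library, with read totals replaced by a library size of their own. The methods and the submitters' processing notes name Bowtie 0.12.9, Cufflinks 2.1.1 and HTSeq on the mouse build mm10. Positions are those of the table, and 28 of 32 members had the same position in GENCODE M21.

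FPKM times gene length gave whole multiples of 1 step in every library (100% of values, tolerance 0.001), from which reads were recovered. Rows that share a symbol were summed. Since the table holds FPKM, log2(FPKM + 1) was tested with limma 3.58.1 in R 4.3.3 (trend, no covariate, Benjamini-Hochberg over genes averaging 1 FPKM or more, adjusted p under 0.05). For single members, exact permutation tests over samples (two-sided) were added. Tables and figures used Python 3.11.15, numpy 2.4.6, pandas 2.3.3 and matplotlib 3.10.9.

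The members and gene lists were chosen with earlier results of these data known. Values are given for members that were called, for paralogs and for the members with the highest mean, and for import partners that were called, and the remaining members are accounted for. Protein identity between paralogs was not analysed here. Alternatives were other pseudocounts (0.1), filters, scalings (quantile, constant sum), variance models, a replicate block, voom on recovered reads, and fits with libraries averaged or left out.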

Additional observations from a re-analysis of the deposited data

Results flagged for a closer look

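In 2 of 39 groups of 4 libraries, 1 library stood far from the others, where chance at 1 in 20 gives 1.9. Both were in control 1. Its log2(FPKM + 1) for Tomm5 was 3.33, from 18 reads, against 8.21 to 9.08 in control 2 to 4, from 1021 to 1819 reads. For Tomm22 it was 0.477, from 1 read, against 3.51 to 4.08, from 39 to 69 reads.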

How the results depend on the processing

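The number of members called lower, 7, was 0 with exercise 1 and 2 averaged and control 4 and exercise 3 left out, 3 with exercise 1 and 2 averaged, 12 with library quality weights, 4 with no filter and 2 under quantile normalization, and 3 to 9 with 1 library left out. The number called higher, 0, was 2 with quality weights (1 under quantile normalization and 1 with a constant sum without mitochondrial transcripts), and 0 to 1 with 1 library left out. Their median log2 fold change, -1.70, was -1.24 with a filter of 1 FPKM in 4 libraries, -2.45 with quality weights, -0.83 with no filter, -2.86 with a pseudocount of 0.1, -0.54 under quantile normalization and -2.47 with voom, and negative in all 21 settings. Of all genes tested, 1161 lower became 0, 424, 2163, 606 and 375 under the first 5 of these settings in the order given for the members, and 363 to 1510 with 1 library left out. The 380 higher became 0 with those 5 samples (317 lower and 134 higher at an unadjusted p under 0.05), 179 with exercise 1 and 2 averaged, 815 with quality weights, 234 with no filter, 249 with a constant sum and 163 to 560 with 1 library left out.

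Of 374 recomputed values of single members, 294 kept their direction and side of the threshold, 47 no longer passed, 16 passed newly and 17 changed sign, none of them in a called member. With quality weights Tomm5 was -0.36, Timm21 -1.25, Timm17a 0.20 and Timm13 0.36. Under quantile normalization Timm23 was 1.23, Timm17a 0.80 and Timm13 1.09, and voom gave 0.69 for Timm13. Timm23 was 0.17 with exercise 1 and 2 averaged, 0.84 without control 4 and exercise 3 as well, and -1.12 to 0.38 with 1 library left out, as Timm13 was -0.54 to 0.11. The cause was not tested where a value moved.

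With the replicate number as a block, 5 members were lower and 1 higher (Tomm5, adjusted p = 0.0484), and 789 of all genes were lower and 270 higher. Deviations of same-numbered libraries correlated at -0.0169 to 0.0393, and those of the other pairs at -0.0381 to 0.0385. Values this small cannot show whether the numbers pair the libraries. The limit for members at 0 depends on the reads and on the library size set by the authors. In exercise 4, 3 reads equal 2.43 FPKM for Timm9, 4.07 for Timm17b and 9.35 for Tomm22. In exercise 1 they equal 0.419, 0.702 and 1.61 FPKM. Exercise 4 held 1155592 reads on genes and exercise 1 held 1058317, but the library size was 0.249 and 1.58 times these reads.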
